A study of Homo sapiens with 17 samples.

Results

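SVA elements are the composite retrotransposons SVA_A to SVA_F, and every repeat locus filed under the class Retroposon and the family SVA was taken, without using any measured value. This gave 4043 loci of 4748242 repeat loci counted. SVA_A had 1473 loci, SVA_B 275, SVA_C 294, SVA_D 1130, SVA_E 458 and SVA_F 413. Of the 4043, 506 lay within 100 bp of another SVA locus, 230 of them SVA_D, so some loci may be pieces of the same insertion. Of the 4043 loci, 2369 had a count in any of the 17 libraries, 708 had 10 or more counts over all libraries, and 118 passed the filter on low counts and could be tested singly.

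The RNA came from IMR90 ER:RAS cells, a cultured line of human lung fibroblasts that carries, by retrovirus, a RAS oncogene fused to an oestrogen receptor domain. All 17 libraries carried this construct, so the control is the same line with the oncogene left off. DMSO siNT cells (n = 5) received the solvent and a non-targeting siRNA, 4OHT siNT cells (n = 6) received 4-hydroxytamoxifen, which turns RAS on and leads to senescence, with the same siRNA, and 4OHT siSMARCA4 cells (n = 6) received 4-hydroxytamoxifen and an siRNA against SMARCA4, an ATPase of the SWI/SNF chromatin remodeller, labelled siSMARCA4_2 in 3 libraries and siSMARCA4_4 in the other 3. The siRNA was given 1 day before the drug and RNA was taken on day 7. SMARCA4 knockdown in cells without active RAS was not measured. The siNT libraries carry the same numbers 2 and 4, for which the labels give no meaning. Below, siRNA number stands only for this label number, in siNT libraries too. A library named 4-3V has siRNA number 4, replicate number 3 and the tag V. The tags V and VM are not explained and were unevenly spread, with VM on 3 of 5 DMSO siNT, all 6 4OHT siNT and 3 of 6 4OHT siSMARCA4 libraries. The siSMARCA4 libraries with V were 2-3V, 4-2V and 4-3V, so number and tag were not balanced there. No label says whether libraries came from separate cultures, so the p-values measure the spread between these libraries, which may be technical.

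SVA elements arose in the ape lineage and are mobilised by the proteins of LINE-1. From its start an element holds a hexamer repeat, an Alu-like stretch, a GC-rich block of tandem repeats (the VNTR), a stretch derived from an endogenous retrovirus (the SINE-R) and a poly(A) tail. In most somatic cells SVA are packed in silent, DNA-methylated chromatin, to which the zinc finger proteins ZNF91 and ZNF611 bring the corepressor TRIM28. SVA_E and SVA_F are the youngest subfamilies.

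The reference sequence of the loci showed what a count of an SVA means here. The annotated stretches had a median length of 886 bp. Strand, which the tables do not give, was read from the sequence for 3597 loci. It was called from poly(A) ends and shared 12-base words, so word shares on the opposite strand below are not independent of that call. Whether the stranded counting used the same strand for each locus could not be checked, so sense and antisense refer here to the sequence, and which strand the counted reads came from is not known. The last 120 bases were searched for the polyadenylation hexamer AATAAA and for the 8 bases GAATGATC and GAATTATC, and the first 600 bases for GTGAGGAG, a word of the VNTR, all on the GRCh38 reference.

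The tails told SVA_F from the other subfamilies. Among the 261 SVA_F loci of 1000 bp or more, 82.8% held GAATTATC in the last 120 bases and 5.75% held GAATGATC. Among the 704 SVA_D loci of that length the shares were 7.81% and 82.7%, and among the 519 SVA_A loci 1.35% and 86.3%. AATAAA was present there in 74.9% of all 1786 such loci, on the element's own strand, and in 0.896% of the 120-base windows just before the same loci. On the opposite strand AATAAA was in 0.448% of the tails, and GAATGATC and GAATTATC were in none of them. GAATGATC and GAATTATC cannot overlap each other or AATAAA.

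The tandem repeats of the VNTR were marked by GTGAGGAG. These 8 bases were searched on both strands, and 99.7% of the 1786 loci of 1000 bp or more held them in their first 600 bases, with a median of 9 copies, against 9.97% of the 600-base windows just before these loci. On the opposite strand 0.224% of the loci held them. The share of the windows just before the loci ran from 2.31% in SVA_A to 19.5% in SVA_F and 31.2% in SVA_E.

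Not every row of the family held such sequence. None of GTGAGGAG, GAATGATC and GAATTATC was found on either strand of 1024 loci, which had a median length of 60 bp and took 4.61% of SVA counts. Of the 1786 loci of 1000 bp or more 4 held none of them, and of the 118 loci that could be tested 7. The tested ones include rows of 227 bp in a coding exon of RNF20, a ubiquitin ligase of histone H2B, and of 1504 bp in the processed pseudogene PRKXP1.

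How well reads can be told apart differed between the subfamilies. The share of 110-base windows of a locus that occur once among all SVA loci had a median of 88.2% in SVA_A, 91.1% in SVA_B, 75.04% in SVA_C, 72.7% in SVA_D, 56.2% in SVA_E and 50.5% in SVA_F. The counting program shares a read pair with several positions among them, so the count of an SVA_F locus leans most on that sharing. SVA_F was also the most GC-rich, with a median of 66.3% against 60.3% over all SVA.

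Most SVA lay in introns, and most of these ran against their gene. By GENCODE 44, 213 loci overlapped an exon, 2204 lay in an intron and 1626 lay outside genes. Of the 1924 intronic loci with a strand, 1372 (71.3%, 95% exact binomial interval 69.2 to 73.3%, counting error only) were antisense to the gene. The interval takes each locus as separate, also where loci may be pieces of the same insertion. SVA_E had the lowest antisense share, 62.4% (55.1 to 69.4%), and SVA_B the highest, 73.0% (64.7 to 80.2%), and these intervals overlapped.

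Counts were spread over places otherwise than loci were. The 78729 SVA counts summed over the 17 libraries fell 14.9% in exons, 48.6% in introns and 36.5% outside genes. For all repeats these shares were 33.4%, 52.2% and 14.4%, so a larger share of SVA counts came from outside genes. Per kilobase of annotated sequence, exonic loci in the sense of their gene had a mean of 0.083 CPM (counts divided by the library total and scaled to the usual per-million basis), intronic sense loci 0.0463 CPM, intronic antisense loci 0.0166 CPM and loci outside genes 0.0236 CPM.

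A few loci held most of the counts. The 44 loci with the most counts held as many SVA counts as all the others together. The SVA_D locus near MLLT10P1 had 5743 counts, 20.2% of its subfamily, and the SVA_B locus in ZSWIM5 had 3141, 63.6% of its subfamily. In the other 4 subfamilies the highest locus held between 6.56 and 14.3%.

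The libraries held 39.1 to 68.98 M counts, of which 3347 to 6251 were SVA counts, so a single locus rested on few reads. SMARCA4 was at 252 to 285 CPM in 4OHT siNT and at 68.4 to 126 CPM in 4OHT siSMARCA4, with no overlap (CPM here and below for single genes, subfamilies and loci were scaled by TMM, edgeR's correction for library make-up). The fibroblast markers COL1A1, COL1A2, COL3A1, VIM and PDGFRB summed to 21509 to 25880 CPM in DMSO siNT, 12876 to 17096 in 4OHT siNT and 7377 to 10534 in 4OHT siSMARCA4. VIM changed little, with means of 5982, 5963 and 5717 CPM in these groups. The means of COL1A1, COL1A2, COL3A1 and PDGFRB were lower at each step. CDH1, CD3E, CDH5 and PTPRC, defining genes of epithelium, T cells, endothelium and leukocytes, had 1 to 50 counts over all libraries. Some markers of these other cell types moved with the groups. The epithelial ones, nearly all KRT18, summed to 52.4 to 74.5 CPM in DMSO siNT, 53.03 to 69.6 in 4OHT siNT and 26.2 to 46.5 in 4OHT siSMARCA4. The endothelial ones summed to 0.798 to 1.83 CPM, 3.52 to 5.54 CPM and 1.73 to 4.25 CPM in the same groups, and the leukocyte ones, nearly all CD68, to 19.95 to 30.4 CPM over all libraries. Their part in the results was not tested. In bulk RNA, fewer cells of a kind and less RNA per cell cannot be told apart.

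Whether SVA RNA as a whole changed was asked first from its share of each library. In DMSO siNT the 5 libraries had 70.9, 81.0, 75.04, 70.9 and 84.8 CPM of SVA. The 4OHT siNT libraries ran from 80.0 to 87.3 CPM with a median of 84.3, and the 4OHT siSMARCA4 libraries from 79.7 to 111 CPM with a median of 103. The 3 siSMARCA4 libraries numbered 2 were at 109 to 111 CPM, over every other library, and of the 3 numbered 4 the library 4-3V was below every 4OHT siNT library.

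**Figure D1:**
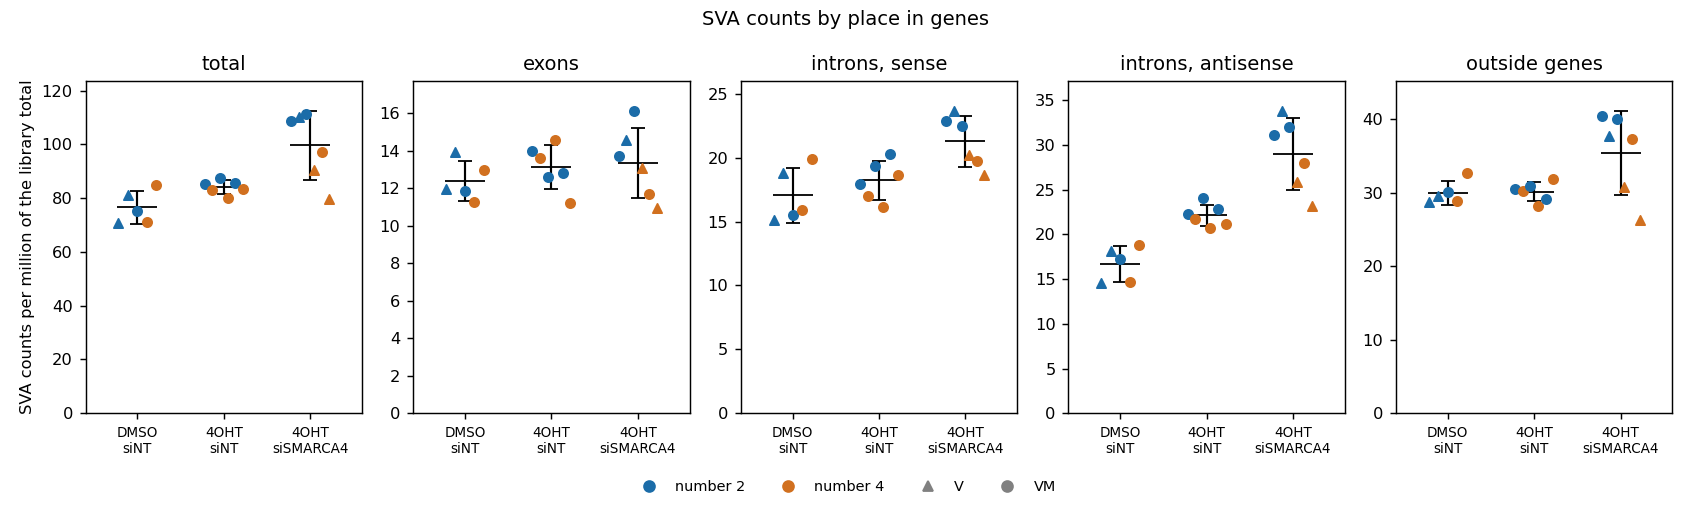
SVA CPM (y axes, from 0) in each library of the 3 groups, for all SVA and by place in genes. Points are libraries, coloured by number (2 or 4) and shaped by the V or VM tag, and black bars give the mean and SD. Antisense intronic SVA stepped up from 16.7 to 22.1 and 29.0 CPM, while exonic SVA stayed between 10.9 and 16.1 CPM.

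The mean of total SVA was 76.5 ± 6.20 CPM (SD, n = 5) in DMSO siNT, 84.1 ± 2.54 CPM (n = 6) in 4OHT siNT and 99.6 ± 12.7 CPM (n = 6) in 4OHT siSMARCA4. Neither step passed after adjustment over the 10 tests of place (exact 2-sided permutation tests, adjusted p 0.0606 for 4OHT and 0.0595 for SMARCA4 knockdown, against 0.0303 and 0.0238 unadjusted). The SVA_B locus in ZSWIM5 is within the totals tested, at a mean of 0.219 TMM-scaled CPM in DMSO siNT and 4.84 in 4OHT siNT. Some alternatives did pass by the same exact test. With 4OHT the difference was 13.4 CPM with TMM-scaled library sizes (adjusted p = 0.0144), 8.68 CPM without DMSO siNT 2-2V (adjusted p = 0.0476) and 9.61 CPM without DMSO siNT 4-3VM (adjusted p = 0.0318). On knockdown it was 19.5 CPM without siSMARCA4 4-3V (adjusted p = 0.00722) and 21.7 CPM among VM libraries alone (adjusted p = 0.0298). By number, the knockdown difference in total SVA was 23.9 CPM among libraries numbered 2 and 7.11 CPM among those numbered 4. The 4OHT difference was 10.4 and 4.25 CPM in the same order. Of the siSMARCA4 libraries numbered 4, 4-2VM was at 97.2 CPM and 4-2V and 4-3V at 90.6 and 79.7 CPM. Of those numbered 2, 2-3V was at 110 CPM and 2-1VM and 2-3VM at 109 and 111 CPM.

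Antisense intronic SVA was the class that passed in both comparisons. It rose from 16.7 ± 1.97 CPM (n = 5) in DMSO siNT to 22.1 ± 1.203 CPM (n = 6) in 4OHT siNT, with every 4OHT library above every DMSO library. It rose again to 29.0 ± 4.04 CPM (n = 6) in 4OHT siSMARCA4, where only 1 library, 4-3V at 23.1 CPM, was within the 4OHT siNT range of 20.7 to 24.04 CPM. Both adjusted p were 0.0216 (exact permutation test, smallest unadjusted p possible 0.00216). The first rise rested on the locus in ZSWIM5: without the 5 SVA loci with the most counts, of which only that one is intronic and antisense, the difference between 4OHT siNT and DMSO siNT was 0.87 CPM (exact permutation test, adjusted p = 0.471). Leaving out 4OHT siNT library 4-1VM, 4-2VM or 4-3VM took the adjusted p of either rise to 0.0541, with differences of 5.52, 5.72 and 5.64 CPM for 4OHT and 6.77, 6.57 and 6.65 CPM for the knockdown. The knockdown difference was 9.24 CPM among libraries numbered 2 and 4.46 CPM among those numbered 4. A background of sparse repeats far from genes, described with SVA_F, was also higher in every siSMARCA4 library than in every 4OHT siNT library, and its part in this rise was not tested.

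The other classes did not pass. Sense intronic SVA was at 17.04 ± 2.15 CPM (n = 5) in DMSO siNT, 18.2 ± 1.53 CPM (n = 6) in 4OHT siNT and 21.3 ± 2.00 CPM (n = 6) in 4OHT siSMARCA4. SVA outside genes was at 29.9 ± 1.60, 30.1 ± 1.28 and 35.4 ± 5.67 CPM in the same groups, and exonic SVA at 12.4 ± 1.05, 13.1 ± 1.18 and 13.3 ± 1.88 CPM. Their adjusted p for the knockdown were 0.0595, 0.0866 and 0.842 (exact permutation tests). Exonic SVA differed on knockdown by 1.68 CPM among libraries numbered 2 and by -1.23 CPM among those numbered 4. Outside genes the knockdown difference was 9.19 CPM among libraries numbered 2 and 1.35 CPM among those numbered 4, and it passed among VM libraries alone (9.12 CPM, adjusted p = 0.0298) and without siSMARCA4 4-3V (7.10 CPM, adjusted p = 0.0162). Sense intronic SVA passed on knockdown without 4OHT siNT 2-3VM (3.45 CPM, adjusted p = 0.0361) or siSMARCA4 4-3V (3.56 CPM, adjusted p = 0.0216, all exact permutation tests).

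Over all libraries, SVA was higher with 4OHT relative to 3 of 4 other sets of repeats, and on SMARCA4 knockdown it passed as higher relative to none of them. The log2 ratio of SVA to LINE-1, the family whose proteins copy SVA, rose by 0.47 from DMSO siNT to 4OHT siNT, where the groups did not overlap (exact permutation test, adjusted p = 0.00866). In CPM, LINE-1 was at 5791 ± 891 (SD, n = 5) in DMSO siNT and 4580 ± 230 (n = 6) in 4OHT siNT, beside the higher but not called SVA total. Summed over the 17 libraries, 57.7% of LINE-1 counts fell in exons, against 14.9% of SVA counts. The SVA side of each ratio includes the locus in ZSWIM5, whose part in these rises was not tested. The log2 ratio to all other repeats rose by 0.23 (adjusted p = 0.00866) and that to ERVK, the retrovirus family from which the SINE-R derives, by 0.26 (adjusted p = 0.0231, both exact permutation tests), while that to Alu differed by 0.12 (adjusted p = 0.336). Among VM libraries alone the rises relative to all other repeats and to ERVK were 0.14 and 0.22 and no longer passed (exact permutation tests, both adjusted p 0.0635). The rise relative to all other repeats was 0.33 among libraries numbered 2 and 0.11 among those numbered 4, and that relative to ERVK 0.40 and 0.09.

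On SMARCA4 knockdown the ratios to all other repeats, LINE-1 and ERVK differed by -0.03, -0.02 and 0.06 on the log2 scale (exact permutation tests, adjusted p 0.833, 0.833 and 0.768). Among libraries numbered 2 they differed by 0.06, 0.10 and 0.10, and among those numbered 4 by -0.11, -0.14 and 0.02. Among VM libraries alone the ratio to LINE-1 was higher by 0.11 and passed (exact permutation test, adjusted p = 0.0476), and that to all other repeats was 0.13 (adjusted p = 0.0635). The log2 ratio to Alu fell by 0.17 (adjusted p = 0.026), with Alu at 4239 ± 232 CPM (n = 6) in 4OHT siNT and 5633 ± 539 CPM (n = 6) in 4OHT siSMARCA4. Leaving out 4OHT siNT library 2-1VM, 2-2VM, 4-2VM, 2-3VM or 4-3VM took that adjusted p to 0.0736, 0.0866, 0.108, 0.0866 and 0.0952, and among VM libraries alone the ratio to Alu was -0.05 (adjusted p = 0.204).

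The 6 subfamilies were then tested one by one among 1026 repeat subfamilies. Of these, 16.9% passed between 4OHT siNT and DMSO siNT (10.1% higher and 6.73% lower) and 20.4% between 4OHT siSMARCA4 and 4OHT siNT (19.4% higher). SVA had 2 of 6 subfamilies higher in the first comparison and 1 of 6 in the second, with none lower. With V or VM as a covariate, 59 of the 1026 subfamilies passed on knockdown in place of 209, and the median log2 fold change over all 1026 was 0.15 in place of 0.25.

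**Figure D2:**
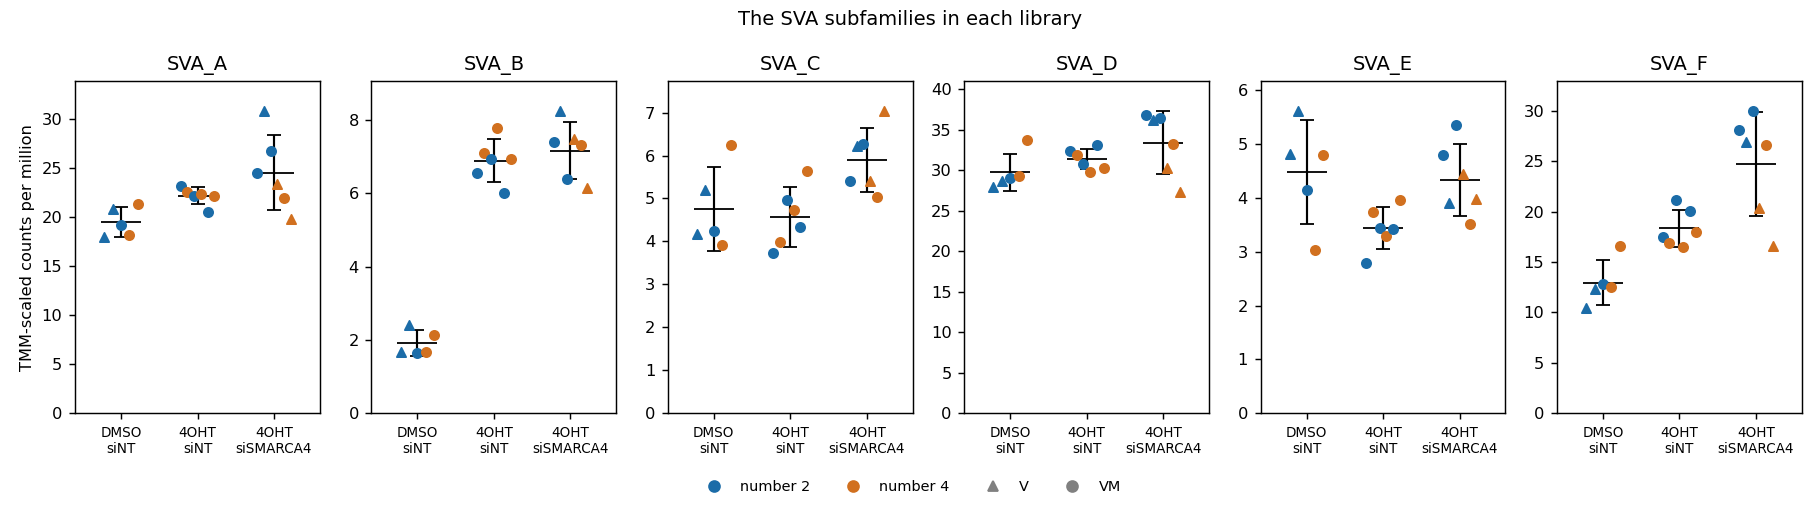
TMM-scaled CPM (y axes, from 0) of each SVA subfamily in the 17 libraries. Points are libraries, coloured by number (2 or 4) and shaped by tag, and black bars give the mean and SD. SVA_B shows 1 step, from at most 2.41 CPM in DMSO siNT to at least 6.01 CPM with 4OHT, and SVA_F a rise over both steps.

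SVA_F, the subfamily with the GAATTATC tail, was the one called in both. In DMSO siNT its libraries had 10.5, 12.3, 12.8, 12.5 and 16.6 CPM. The 4OHT siNT libraries ran from 16.5 to 21.1 CPM (median 17.7) and the 4OHT siSMARCA4 libraries from 16.6 to 29.9 CPM (median 26.7). DMSO siNT 4-3VM and 4OHT siNT overlapped by a little, and siSMARCA4 4-3V and 4-2V were within the 4OHT siNT range.

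The log2 fold change of SVA_F was 0.50 (SE 0.14, adjusted p = 0.0179) in 4OHT siNT against DMSO siNT and 0.43 (SE 0.13, adjusted p = 0.028) on SMARCA4 knockdown, by edgeR's quasi-likelihood test with Benjamini-Hochberg adjustment over subfamilies. The medians over all 1026 subfamilies were 0.05 and 0.25. The SVA_F loci outside genes gave 0.57 (adjusted p = 0.018) on knockdown. In that fit the median over 705 subfamilies was 0.38, and 181 of them passed as higher. The knockdown call was lost with the TMM factors taken from repeats alone (0.17, adjusted p = 0.646), on leaving out any of 7 single libraries (0.37 to 0.43, adjusted p 0.051 to 0.070), among libraries numbered 4 (0.35, adjusted p = 0.275), and with the background described next as a covariate (0.14, adjusted p = 0.672). The call with 4OHT was lost with TMM factors from repeats alone (0.42, adjusted p = 0.146), among loci outside genes (0.43, adjusted p = 0.095), among libraries numbered 4 (0.18, adjusted p = 0.595), among VM libraries alone (0.36, adjusted p = 0.055), and without 4OHT siNT 2-3VM or any 1 of DMSO siNT 2-1V, 2-2V, 2-2VM and 4-2VM (0.41 to 0.47, adjusted p 0.060 to 0.096). The 7 libraries that decided the knockdown call were 4OHT siNT 2-1VM, 4-1VM, 4-2VM and 4-3VM and siSMARCA4 2-1VM, 2-3V and 2-3VM. That call was also lost with the replicate number as a term (0.41, adjusted p = 0.051). The 4OHT call was lost with the whole replicate label as a term (0.42, adjusted p = 0.090). DMSO siNT 2-1V and 2-2V and 4OHT siNT 4-1VM have labels that no other library has, so that term takes them out of the comparison. Among libraries numbered 2 SVA_F was called with 4OHT (0.69, adjusted p = 0.0019) and on knockdown (0.58, adjusted p = 0.031, all by edgeR).

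That background is the sum of 40779 repeat loci at least 50000 bp from any gene that had at most 20 counts each over all libraries. It was at 47.5 to 119 CPM in DMSO siNT, 35.6 to 68.7 CPM in 4OHT siNT and 70.4 to 198 CPM in 4OHT siSMARCA4. It was higher in every siSMARCA4 library than in every 4OHT siNT library, beside the rise of SVA_F and of repeats as a whole. With it as a covariate, 2 of the 1026 subfamilies passed on knockdown.

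SVA_B rose most in 4OHT siNT, by 1.85 on the log2 scale (SE 0.12, adjusted p = 2.5e-09). Its libraries were at 1.67, 2.41, 1.63, 1.66 and 2.15 CPM in DMSO siNT and at 6.01 to 7.77 CPM (median 6.94) in 4OHT siNT, with no overlap. This rested on the locus in ZSWIM5: without the highest locus of each subfamily, a setting chosen after seeing the data, SVA_B changed by 0.20 (adjusted p = 0.443), and the SVA_B loci outside genes by -0.07. On knockdown SVA_B changed by 0.06 (adjusted p = 0.752).

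**Figure D3:**
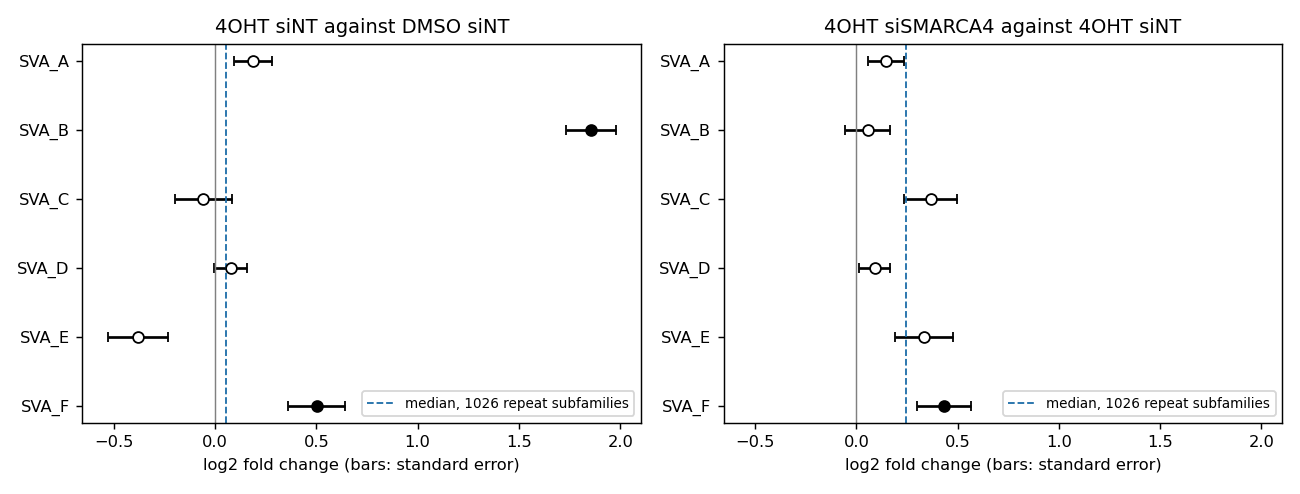
Log2 fold change (x axes) of each SVA subfamily in the comparison of 4OHT siNT with DMSO siNT and of 4OHT siSMARCA4 with 4OHT siNT, with standard errors. Filled points passed the test and the dashed line is the median of 1026 repeat subfamilies, at 0.05 and 0.25. SVA_B at 1.85 lies far from the others on the left, and on the right the 6 values lie between 0.06 and 0.43 around the dashed line.

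The remaining subfamilies passed neither edgeR test over all libraries, with 1 term per group and the filter on low counts. SVA_A, at 19.5, 22.2 and 24.5 CPM in DMSO siNT, 4OHT siNT and 4OHT siSMARCA4, changed by 0.19 and 0.15 on the log2 scale in the 2 comparisons, and passed with 4OHT when the sparse background was a covariate (0.25, adjusted p = 0.042). SVA_D, the most counted, at 29.7, 31.4 and 33.4 CPM, changed by 0.08 and 0.09. SVA_C and SVA_E, at 3.44 to 5.89 CPM, had values of -0.06 and -0.38 with 4OHT and of 0.37 and 0.33 with knockdown (adjusted p 0.842, 0.0914, 0.0574 and 0.101). SVA_C passed on knockdown with DESeq2 (0.37, adjusted p = 0.036), with no filter on low counts (0.40, adjusted p = 0.045) and without 4OHT siNT 4-3VM or siSMARCA4 4-2VM (0.44 and 0.41, adjusted p 0.039 and 0.038). It also passed there without DMSO siNT 4-3VM, which shares the estimate of spread (0.37, adjusted p = 0.035). SVA_E passed with 4OHT without DMSO siNT 4-2VM (-0.51, adjusted p = 0.020). With TMM factors from repeats alone, under which the median of all genes on knockdown was -0.29 in place of -0.02, SVA_A, SVA_B and SVA_D turned negative there, at -0.12, -0.21 and -0.17.

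The siSMARCA4 libraries numbered 2 gave larger values than those numbered 4 in each subfamily, 0.54 against 0.31 for SVA_F and 0.31 against -0.04 for SVA_A in a fit of both numbers together. The difference between the numbers was itself not called for any subfamily (edgeR interaction term, unadjusted p under 0.05 for SVA_A alone at 0.0252, adjusted p 0.926 to 0.982).

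Single loci were tested among 13026 repeat loci with enough counts, 118 of them SVA. Between 4OHT siNT and DMSO siNT 27.5% of these repeat loci passed (18.1% higher, 9.33% lower), and of the SVA loci 30, or 25.4%, with 20 higher and 10 lower. On SMARCA4 knockdown 6.16% passed (4.36% higher, 1.8% lower), and of the SVA loci 5, or 4.24%, all higher. The SVA counts were near the background in both comparisons. The median log2 fold change of the 118 loci was 0.07 and 0.18, beside 0.16 and 0.14 over all 13026.

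The SVA_B locus in an intron of ZSWIM5, chr1:45247875-45248548, was the strongest change. In DMSO siNT it had 0.037, 0.369, 0.249, 0.123 and 0.318 CPM, in 4OHT siNT 3.98 to 5.30 CPM (median 5.07) and in 4OHT siSMARCA4 3.96 to 5.41 CPM (median 4.84). The 4OHT groups lay far above DMSO siNT and overlapped each other fully.

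The log2 fold change of that locus was 4.45 (SE 0.30, adjusted p = 3.86e-09) with 4OHT and -0.02 (SE 0.22, adjusted p = 0.974) with knockdown. Its sequence lies 674 bp long on the plus strand, against ZSWIM5, and every 110-base window of it was found once among SVA. ZSWIM5, a zinc finger SWIM-domain gene, rose with it from 0.74 to 7.03 CPM (log2 fold change 3.24, adjusted p = 4.97e-08) and fell on knockdown to 3.87 CPM (log2 fold change -0.86, adjusted p = 0.0208), where the SVA_B locus did not pass.

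**Figure D4:**
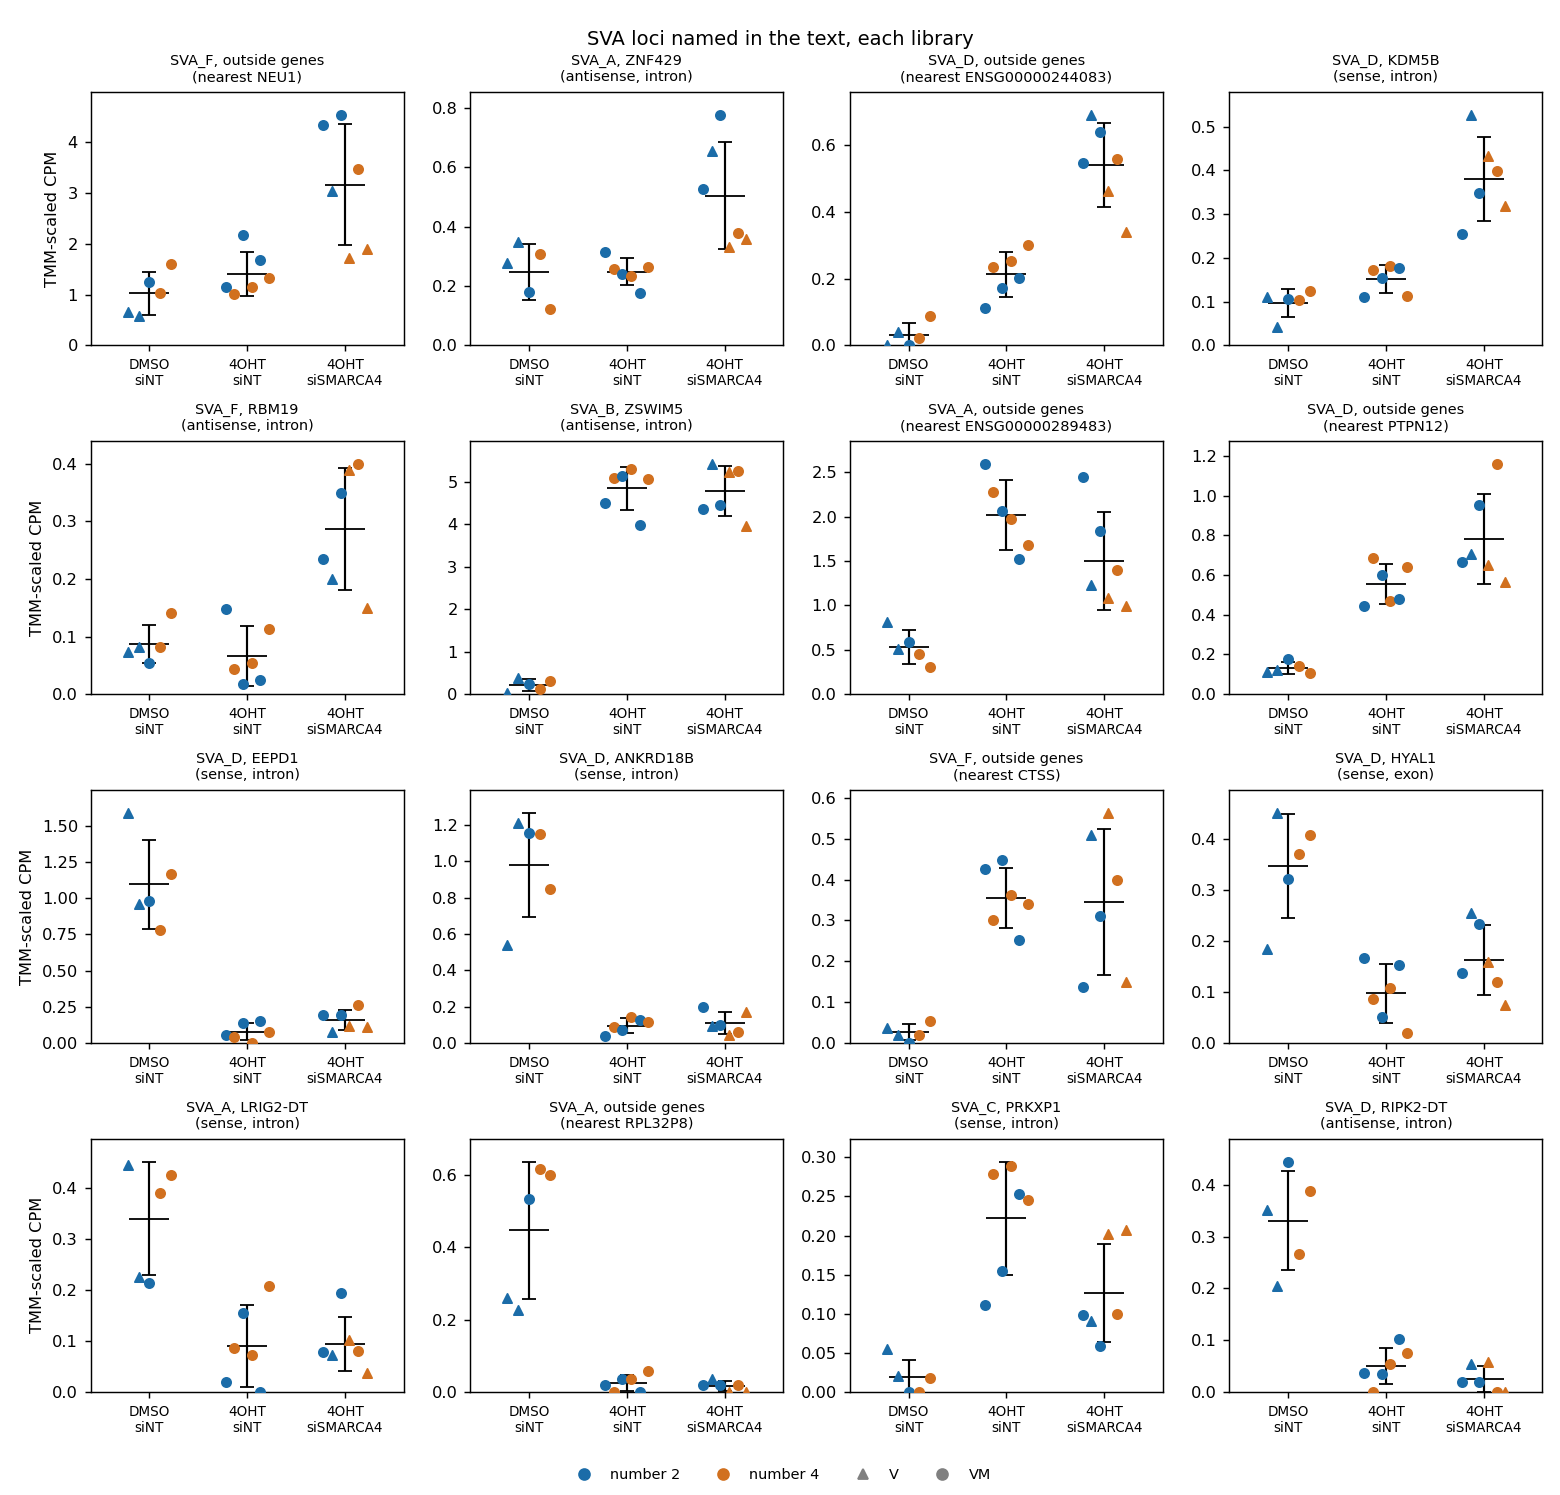
TMM-scaled CPM (y axes, from 0) in each library for the 16 SVA loci chosen for their change, titled by subfamily and host or nearest gene. Points are libraries, coloured by number (2 or 4) and shaped by tag, and black bars give the mean and SD. The first 5 panels are the loci called on SMARCA4 knockdown, and the others, such as SVA_B in ZSWIM5 and SVA_D in EEPD1, were called between 4OHT siNT and DMSO siNT.

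The other loci that rose with 4OHT and did not overlap between the groups were at lower levels. The SVA_F locus 480 bp from CTSS, the gene of cathepsin S, had 0 to 0.053 CPM in DMSO siNT and 0.253 to 0.447 CPM in 4OHT siNT (log2 fold change 3.64, SE 0.52, adjusted p = 2.88e-05, on 7 and 111 counts). By its sequence this locus lies on the strand of CTSS. The change of CTSS was not compared, and reads running on from it cannot be told apart here. The SVA_A locus at chr1:92025356-92026499, outside genes, rose from 0.53 ± 0.19 (SD, n = 5) to 2.02 ± 0.39 CPM (n = 6). The SVA_D locus 2841 bp from PTPN12, a tyrosine phosphatase gene on the other strand, rose from 0.132 ± 0.0294 (n = 5) to 0.554 ± 0.102 CPM (n = 6). Their log2 fold changes were 1.92 and 2.05, with adjusted p of 2.65e-05 and 7.85e-06 (edgeR).

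The row in PRKXP1, which holds none of these SVA words, also rose, by 3.40 (adjusted p = 0.000272, on 5 and 67 counts), as did PRKXP1 itself by 1.85 (adjusted p = 0.00265). The SVA_D locus at chr11:86878668-86880461, in an intron of PRSS23 and in its sense, was the third most counted. It rose from 0.759 ± 0.305 (SD, n = 5) to 2.55 ± 0.548 CPM (n = 6), a log2 fold change of 1.74 (adjusted p = 8.38e-06), beside 0.38 for PRSS23, a serine protease gene.

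Of the 6 SVA loci with the largest falls with 4OHT, 2 lay in the sense of a gene that fell too. The SVA_D locus in EEPD1, chr7:36196779-36197909, had 1.59, 0.963, 0.979, 0.78 and 1.17 CPM in DMSO siNT against 0 to 0.152 CPM (median 0.0655) in 4OHT siNT, and 0.0727 to 0.26 CPM in 4OHT siSMARCA4. Its log2 fold change with 4OHT was -3.82 (SE 0.44, adjusted p = 3e-06), beside -2.47 for EEPD1, an endonuclease-domain gene of DNA repair (adjusted p = 2.56e-08). DMSO siNT stood apart from both other groups.

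The SVA_D locus in ANKRD18B, an ankyrin repeat gene, fell from 0.98 ± 0.286 (SD, n = 5) to 0.096 ± 0.0398 CPM (n = 6), with a log2 fold change of -3.33 (adjusted p = 1.74e-06), and ANKRD18B fell by 3.24. The SVA_A locus at chr3:149444373-149445336, outside genes and 11099 bp from the nearest one, fell by 4.00 (adjusted p = 2.6e-05, on 119 and 8 counts). Loci in LRIG2-DT and HYAL1 fell by 1.85 and 1.83 (adjusted p 0.0118 and 0.00262) where their hosts, at -0.63 and -0.12, did not pass. The SVA_D locus in RIPK2-DT, antisense to it, fell by 2.69 (adjusted p = 0.000926) while RIPK2-DT rose by 0.74 (adjusted p = 4.48e-06). On average these loci were at 0.0159 to 0.163 CPM in 4OHT siSMARCA4. There the HYAL1 locus, at 0.0752 to 0.254 CPM, overlapped its DMSO siNT range of 0.185 to 0.451 CPM.

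Across genes, most SVA loci on the strand of their host changed in the host's direction in senescence. Of 54 sense loci with a tested host, 40 had the host's sign with 4OHT, and all 13 that passed did, 10 with a host that passed too. Of all genes tested, 54.4% passed with 4OHT. The correlation of the 2 log2 fold changes over these 54 loci was r = 0.77 (rho 0.63), as a description over loci that share libraries and sometimes a gene. Of 24 antisense loci 13 had the host's sign (r = 0.27, rho 0.04), and 2 of the 5 that passed. The difference between sense and antisense loci was not tested. Of the tested sense loci 22 lay in exons and 34 in introns, and the 2 sets were not compared with their hosts apart. Reads of an SVA and reads of its host, spliced or unspliced, cannot be told apart in these counts.

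**Figure D5:**
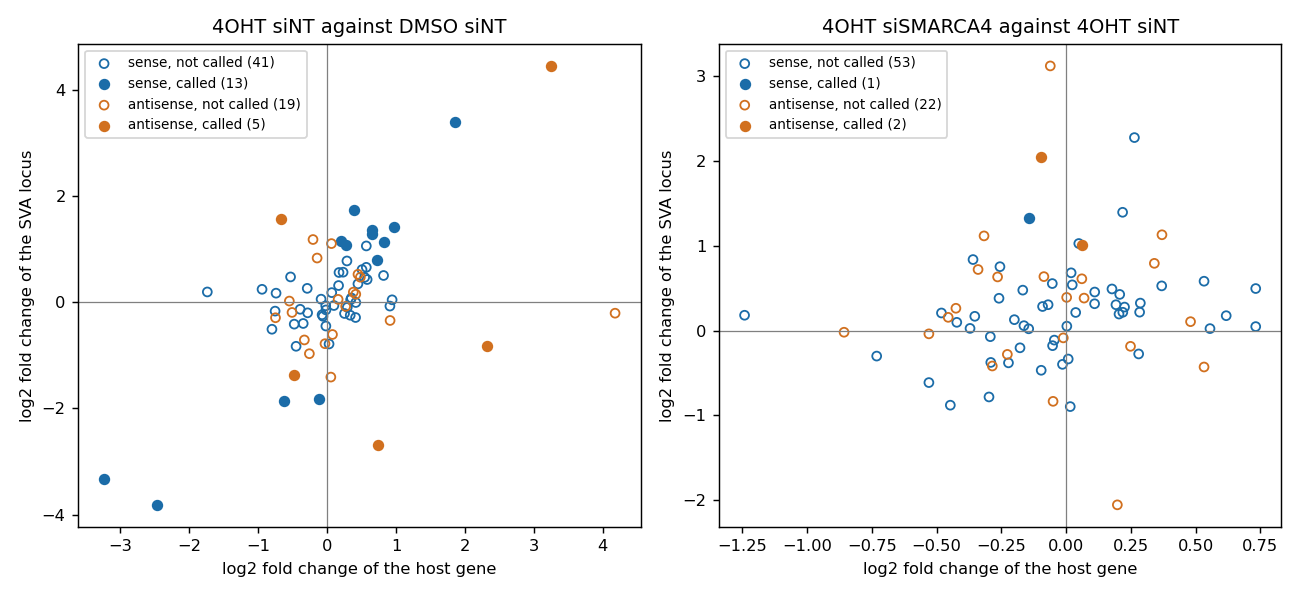
Log2 fold change of each SVA locus (y axes) against that of its host gene (x axes), for 4OHT siNT against DMSO siNT and for 4OHT siSMARCA4 against 4OHT siNT. Each point is 1 of 78 tested loci in a tested gene, blue where sense and orange where antisense, filled where the locus passed the test. With 4OHT the blue points, in exons and introns, tend to follow the host (r = 0.77), and on knockdown the 3 filled points lie near 0 on the host axis.

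On SMARCA4 knockdown 35 of 54 sense loci had the host's sign (r = 0.28, rho 0.36) and 13 of 24 antisense loci (r = -0.05, rho -0.04). The 2 comparisons share the 4OHT siNT libraries, and the difference between them was not tested. None of the 3 called loci in a tested gene had a host that passed, where 24.2% of all genes tested passed. Of the 118 loci 78 had a log2 fold change above 0, among them 21 of 28 antisense intronic loci (median 0.48), 27 of 34 sense intronic loci (median 0.19), 16 of 30 outside genes (median 0.11) and 14 of 26 in exons (median 0.12).

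The SVA_F locus at chr6:31853280-31854962, 2697 bp from NEU1 and by its sequence on the strand of that gene, had the most counts of the 5 called on knockdown. It had 0.647, 0.574, 1.25, 1.03 and 1.61 CPM in DMSO siNT, 1.01 to 2.17 CPM (median 1.24) in 4OHT siNT and 1.72 to 4.54 CPM (median 3.26) in 4OHT siSMARCA4. The siSMARCA4 libraries 4-2V and 4-3V lay within the 4OHT siNT range and the other 4 above it. The log2 fold change was 1.16 (SE 0.29, adjusted p = 0.025), and 36.0% of its 110-base windows were found once among SVA. The change of NEU1 was not compared, and reads running on from it cannot be told apart here.

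The SVA_D locus in an intron of KDM5B, chr1:202739476-202740615, in the gene of a histone H3 lysine 4 demethylase, was at 0.111 to 0.181 CPM (median 0.163) in 4OHT siNT and at 0.254 to 0.527 CPM (median 0.374) in 4OHT siSMARCA4, without overlap. It rose by 1.32 (SE 0.27, adjusted p = 0.0117), and KDM5B, on the same strand, changed by -0.15 (adjusted p = 0.289). The SVA_F locus in an intron of RBM19, chr12:113872084-113873699, a ribosome biogenesis gene, antisense to it, rose from 0.0669 ± 0.0523 (SD, n = 6) to 0.287 ± 0.106 CPM (n = 6), by 2.05 (SE 0.44, adjusted p = 0.0142), with RBM19 at -0.10 (adjusted p = 0.534). Neither locus overlapped between these groups, and for the one in RBM19 the gap was small, with a highest 4OHT siNT value of 0.148 CPM and a lowest siSMARCA4 value of 0.15 CPM. The RBM19 locus rested on 21 and 96 counts in these groups, and 37.0% of its 110-base windows were found once among SVA.

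The SVA_A locus in an intron of ZNF429, chr19:21550657-21551981, a KRAB zinc finger gene, antisense to it, rose by 1.01 (SE 0.28, adjusted p = 0.0411), from 0.248 ± 0.0448 (n = 6) to 0.505 ± 0.181 CPM (n = 6). The SVA_D locus at chr4:122811596-122813204, outside genes, rose in both steps, from 0.03 ± 0.0368 (n = 5) to 0.213 ± 0.0667 (n = 6) and 0.54 ± 0.126 CPM (n = 6), with log2 fold changes of 2.72 (adjusted p = 0.000716) and 1.33 (adjusted p = 0.0406). In both the groups of the knockdown comparison did not overlap, which held for 5 SVA loci higher and 0 lower, beside 3.25% and 1.19% of the 13026 repeat loci. With 4OHT 12 SVA loci were higher and 9 lower without overlap, beside 11.9% and 5.9% of these.

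Which loci were called on knockdown changed with the libraries and covariates used. Fits that left out 1 of the 12 libraries compared called 1 to 5 SVA loci. The locus in KDM5B was called in each of the 12. The one in RBM19 was called in each of the 7 in which it had enough counts to be tested. Both loci passed the filter on low counts through the siSMARCA4 libraries, with highest 4OHT siNT values of 0.181 and 0.148 CPM. The fits in which the RBM19 locus was not tested each left out a siSMARCA4 library in which it was high. The calls in the other fits are therefore no separate support for either rise. The KDM5B locus lost its call among VM libraries alone (1.14, adjusted p = 0.056) and with no filter on low counts (1.26, adjusted p = 0.147). The loci in ZNF429 and on chromosome 4 lost their call in 10 and 11 of the 12, and the one near NEU1 in 7. Without DMSO siNT 2-1V the ZNF429 locus (0.98, adjusted p = 0.053), and without DMSO siNT 2-2V the chromosome 4 locus (1.31, adjusted p = 0.051), also lost their call. With the background of sparse repeats as a covariate 0 SVA loci passed in edgeR (11 at an unadjusted p under 0.05), while DESeq2 without it called 6. The log2 fold changes were then 1.44 for the KDM5B locus (adjusted p = 0.142) and 1.85 for the RBM19 locus (adjusted p = 0.241), beside 1.32 and 2.05 without the covariate. Among the libraries of number 2 or 4 alone 0 passed (15 and 20 at an unadjusted p under 0.05), where the log2 fold changes of the KDM5B locus were 1.35 and 1.30 and those of the RBM19 locus 1.96 and 2.12. Of all repeat loci 124 of 13315 and 7 of 16032 passed in these 2 fits, and 15 of 13026 with the covariate, in place of 802. With the whole replicate label as a term 0 SVA loci and 9 of 13026 repeat loci passed. That term takes out siSMARCA4 2-3V, 4-2V and 4-3V and 4OHT siNT 4-1VM, whose labels no other library has. In that fit the KDM5B locus was at 1.16 (edgeR, adjusted p = 0.242), and the RBM19 locus also lost its call.

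Loci that share sequence were read side by side. The SVA_F loci near NEU1, on chromosome 21 and in KDM2A had 36.0%, 28.1% and 0% of unique windows and log2 fold changes of 1.16, 0.52 and 0.63 on knockdown, of which the first passed. Over the tested loci of at least 110 bp, those with under 50% of unique windows had a median log2 fold change of 0.35 on knockdown (34 loci), those with 50 to 75% 0.19 (35 loci) and those with 75% or more 0.12 (46 loci). With 4OHT these medians were 0.02, 0.17 and 0.12. The rank correlation of the share of unique windows with the log2 fold change over these 115 loci, which share libraries, was only -0.10 on knockdown and -0.02 with 4OHT.

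The most counted SVA locus of all fell with 4OHT. The SVA_D locus at chr20:30404647-30406523, near MLLT10P1, had 7.84, 7.48, 7.33, 8.23 and 9.05 CPM in DMSO siNT, 5.10 to 6.52 CPM (median 5.93) in 4OHT siNT and 3.81 to 6.64 CPM (median 5.84) in 4OHT siSMARCA4. It fell by 0.44 on the log2 scale with 4OHT (SE 0.13, adjusted p = 0.0138), all DMSO siNT libraries lying above the others, and changed by -0.07 with knockdown (adjusted p = 0.782).

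Of 26 tested exonic loci 6 passed with 4OHT, 3 in each direction, and 0 with knockdown (4 at an unadjusted p under 0.05). The 5 in protein-coding genes with the highest counts were the SVA_D in an untranslated exon of MRNIP (overlapping SQSTM1), the row in RNF20, the SVA_A in a coding exon of YARS1, the SVA_A in a noncoding exon of ZNF611 and the SVA_C in a noncoding exon of TMBIM4. Their log2 fold changes ran from -0.41 to 0.47 with 4OHT and from -0.20 to 0.58 with knockdown, with no adjusted p under 0.191. The SVA_A in ZNF611 is an SVA within the gene of an SVA repressor, at 0.468 ± 0.199 (SD, n = 5), 0.422 ± 0.117 (n = 6) and 0.595 ± 0.254 CPM (n = 6) in the 3 groups.

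The genes that silence or restrict SVA were read last, as 21 genes in 4 lists. Of all 19473 genes tested 54.4% passed with 4OHT (27% higher and 27.4% lower) and 24.2% with knockdown (10.4% higher and 13.8% lower). Of the 21 genes, 2 rose and 8 fell with 4OHT, and 1 rose and 3 fell with knockdown, with median log2 fold changes of -0.15 and -0.11 beside 0.00 and -0.02 over all genes.

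The KRAB zinc fingers and their corepressor (ZNF91, ZNF611, TRIM28, SETDB1 and ATF7IP) held 1 call, a fall of ATF7IP by 0.35 with 4OHT. On knockdown ZNF91 was at 0.31 (adjusted p = 0.0646) and TRIM28 at -0.11 (adjusted p = 0.196). Of the HUSH complex and its partner (TASOR, MPHOSPH8, PPHLN1 and MORC2) MORC2 rose by 0.50 and PPHLN1 fell by 0.34 with 4OHT, and MORC2 fell by 0.25 on knockdown.

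Among the DNA methylation genes UHRF1, which guides DNMT1 to newly copied DNA, fell by 1.499 with 4OHT (38.7 to 58.7 CPM against 13.97 to 18.95 CPM, adjusted p = 1.66e-09), DNMT3B fell by 1.02 and DNMT1 by 0.26. On knockdown DNMT1 fell by 0.27 and DNMT3A by 0.35. Of 8 restriction genes the cytidine deaminases APOBEC3B and APOBEC3G fell by 4.63 and 1.93 with 4OHT and MOV10, an RNA helicase, by 0.70, while ADAR, an RNA-editing enzyme, rose by 0.52. APOBEC3B rose by 0.81 on knockdown, from 0.209 to 0.527 CPM to 0.454 to 0.927 CPM (adjusted p = 0.0176), with overlap.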

How the data were processed

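Poly(A)-selected, stranded RNA of 17 libraries was read. The authors trimmed reads with Cutadapt 4.7, aligned them to GRCh38 with HISAT2 2.2.1 and counted genes and repeat loci with TElocal, reverse stranded, sharing multi-mapped pairs. The deposited values are expected counts, written as whole numbers and not normalised, from 1 table per library with 62754 genes and 4748242 repeat loci. Totals were 39.1 to 68.98 M, and no 2 libraries were identical.

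Coordinates counted from 1 on GRCh38: 300 of 3000 sampled AluY loci started with the consensus at the stated base and 0 at 1 or 2 bases to either side. GENCODE 44, for GRCh38, gave place, host gene and symbol, and may differ from the annotation used in counting. A locus touching any exon was exonic. Strand was read from poly(A) ends (a run of 8 A within 40 bases, 1525 loci) and extended by shared 12-base words. It was the same for all 780 loci of a held-back check, all of them with poly(A) ends.

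Counts were summed per subfamily. Genes with subfamilies, and genes with loci of 10 or more counts, were filtered (filterByExpr, minimum count 10, total 15), scaled by TMM and fitted over all 17 libraries with 1 term per group by edgeR 4.0.16 (R 4.3.3, quasi-likelihood, Benjamini-Hochberg over subfamilies, loci or genes; DESeq2 1.42.0 as an alternative). A call is an adjusted p under 0.05. Ratios and CPM of classes were compared by exact 2-sided permutation tests (924 or 462 splits). The code was tested on simulated data.

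Loci named were the 10 with the highest mean, up to 6 rises and 6 falls per comparison among called loci without overlap, the 5 highest exonic loci of protein-coding genes, and, chosen after seeing values, the SVA_F locus called with overlap. Members and gene lists were chosen with earlier results of these data known. The sequences of the loci and 1 named locus are not reported here.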

Additional observations from a re-analysis of the deposited data

Results flagged for a closer look

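In groups of 5 or 6 libraries, the library farthest from the rest was compared with Dixon's 95% critical value for 126 combinations of a measure and a group, and 5 stood apart, a number that chance alone can give at about 1 in 20. The DMSO siNT library 4-3VM was high for SVA_D, at 33.8 CPM against 27.95 to 29.3 CPM in the other 4, and for the SVA_F locus in KDM2A, at 1.54 CPM against 0.821 to 1.01 CPM. The siSMARCA4 library 4-2VM was low for the SVA_D locus in MRNIP, at 0.90 CPM against 1.49 to 1.75 CPM. The siSMARCA4 library 2-1VM was low for the SVA_C locus in TMBIM4, at 0.313 CPM against 0.56 to 0.664 CPM. The DMSO siNT library 2-2V was low for the SVA_D locus in KDM5B, at 0.041 CPM against 0.103 to 0.124 CPM.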

How the results depend on the processing

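Depth limits the single loci: 118 of 4043 could be tested. In edgeR, 5 SVA loci were called on knockdown and 30 with 4OHT. On knockdown the count was 2 with TMM factors from repeats alone, 9 with V or VM as a covariate, 2 with a minimum count of 20, and 0 with siRNA number 2 alone, siRNA number 4 alone or the sparse far repeats as a covariate. Of all repeat loci 124 of 13315, 7 of 16032 and 15 of 13026 passed in these last 3 settings, in place of 802 of 13026. With 4OHT it was 19 with siRNA number 4 alone. Of subfamilies, 1 was called on knockdown, against 2 with DESeq2, 2 with no filter on low counts, and 0 with TMM factors from repeats alone, siRNA number 4 alone or the sparse far repeats as a covariate. Of all repeat subfamilies 21 of 1026, 66 of 1039 and 2 of 1026 passed in these last 3 settings, in place of 209 of 1026. With 4OHT 2 were called, against 1 with TMM factors from repeats alone, VM libraries alone, siRNA number 4 alone or without the locus with the most counts, 0 with loci outside genes alone, and 3 with the sparse far repeats as a covariate, where SVA_A passed. Leaving out 1 library gave 1 to 5 loci and 0 to 2 subfamilies on knockdown, and 28 to 32 loci and 1 to 2 subfamilies with 4OHT. The cause of these changes was not tested.

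In differences of CPM, exonic SVA on knockdown turned to -0.133 with TMM-scaled library sizes and to -0.766 when exons had to cover 50% of a locus. Without the 5 loci with the most counts the difference with 4OHT was 0.87 for antisense and -0.591 for sense intronic SVA. With TMM-scaled library sizes the total with 4OHT differed by 13.4 and then passed. Among VM libraries alone SVA outside genes differed by -0.381 with 4OHT and by 9.12 on knockdown, and the total on knockdown by 21.7, the last 2 passing. Leaving out 1 library gave on knockdown -0.328 to 0.703 for exonic, 5.89 to 8.02 for antisense intronic, 2.56 to 3.56 for sense intronic and 4.25 to 7.10 for outside SVA and 13.2 to 19.5 for the total, and with 4OHT 4.9 to 5.98 for antisense intronic and -0.169 to 0.845 for outside SVA and 6.13 to 9.61 for the total.

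Of the log2 ratios, among VM libraries alone that to LINE-1 on knockdown was 0.114 and then passed (adjusted p = 0.0476, exact permutation test), that to all other repeats 0.129 and that to Alu -0.045, and with 4OHT that to all other repeats was 0.143 and that to ERVK 0.217, the last 3 no longer passing. The ratio to ERVK with 4OHT was 0.405 with siRNA number 2 alone and 0.0869 with siRNA number 4 alone. Leaving out 1 library gave on knockdown -0.046 to 0.045 for LINE-1, -0.200 to -0.13 for Alu and -0.058 to 0.0503 for all other repeats.

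Whether replicate labels pair the libraries was read from correlations of deviations from the group means, over pairs of libraries in different groups. Over 7 pairs with the same whole label these were -0.45 to 0.30 (median 0.05), and 2 were over 0.1. Over 32 pairs with the same replicate number they were -0.45 to 0.53 (median 0.05), and 14 were over 0.1. Over 64 pairs with different replicate numbers they were -0.53 to 0.61 (median -0.03), and 19 were over 0.1. These ranges overlapped, and pairs within a group were not compared. With the replicate number (1 to 3) as a replicate block 3 loci and 0 subfamilies were called on knockdown, with SVA_F at 0.41 (adjusted p = 0.051). With the whole label as a replicate block 0 loci were called on knockdown (20 at an unadjusted p under 0.05; 1.16 for the KDM5B locus, adjusted p = 0.242, and 2.23 for the RBM19 locus, adjusted p = 0.198), and 17 loci and 1 subfamily with 4OHT, where SVA_F was at 0.42 (adjusted p = 0.090). Of all 13026 repeat loci 9 passed there on knockdown and 1488 with 4OHT. That block takes out every library whose label no other library has, among them siSMARCA4 2-3V, 4-2V and 4-3V. The part of this in the lost calls was not tested.

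The following reversed in sign, none but that of SVA_B having been called. With TMM factors from repeats alone, the sign turned for SVA_A in ZNF429 (-0.10), SVA_A in ZNRF2P1 (-0.039), SVA_D (-0.014) and SVA_D in MRNIP (-0.087) with 4OHT and for SVA_A (-0.12), SVA_A in LRIG2-DT (-0.17), SVA_A in ZNRF2P1 (-0.095), SVA_B (-0.21), SVA_D (-0.17), SVA_D in PRSS23 (-0.13), SVA_D in MRNIP (-0.0074) and SVA_D in ANKRD18B (-0.019) on knockdown. With siRNA number 4 alone, the sign turned for SVA_A in ZNRF2P1 (-0.52), SVA_D (-0.088), SVA_D in MRNIP (-0.22) and SVA_F near NEU1 (-0.21) with 4OHT and for SVA_A (-0.0029), SVA_A in LRIG2-DT (-0.70), SVA_B (-0.019), SVA_D in ANKRD18B (-0.37) and SVA_F near CTSS (0.17) on knockdown. With the sparse far repeats as a covariate, the sign turned for SVA_A in ZNF611 (0.13) and SVA_C (0.031) with 4OHT and for SVA_A (-0.037), SVA_A in ZNF611 (-0.24), SVA_A in LRIG2-DT (-0.36), SVA_A in ZNRF2P1 (-0.26), SVA_B (-0.055) and SVA_D (-0.062) on knockdown. With the replicate number as a block, the sign turned for SVA_A in ZNF429 (-0.029) with 4OHT and for SVA_A in LRIG2-DT (-0.034) and SVA_A in RNF20 (0.047) on knockdown. With siRNA number 2 alone, the sign turned for SVA_A in ZNF429 (-0.10) with 4OHT and for SVA_A on chromosome 3 (0.34), SVA_A in ZNRF2P1 (-0.069), SVA_A in RNF20 (0.28), SVA_B in ZSWIM5 (0.057) and SVA_D in PRSS23 (-0.093) on knockdown. With VM libraries alone, the sign turned for SVA_A in ZNF611 (0.30) and SVA_D in MRNIP (-0.018) with 4OHT and for SVA_A in RNF20 (0.028) and SVA_D near MLLT10P1 (0.11) on knockdown. With the whole label as a block, the sign turned for SVA_A in ZNF611 (0.31), SVA_A in ZNRF2P1 (-0.069), SVA_C (0.072), SVA_D (-0.014) and SVA_D in MRNIP (-0.013) with 4OHT and for SVA_A in RNF20 (0.18), SVA_B in ZSWIM5 (0.12), SVA_D near MLLT10P1 (0.06998) and SVA_D in MRNIP (-0.098) on knockdown. With no filter on low counts, the sign turned for SVA_A in LRIG2-DT (-0.042) and SVA_D in PRSS23 (-0.0077) on knockdown. With V or VM as a covariate, the sign turned for SVA_A in ZNRF2P1 (-0.024) with 4OHT and for SVA_D near MLLT10P1 (0.047) on knockdown. With loci outside genes alone, the sign turned for SVA_B (-0.071) and SVA_D (-0.0398) with 4OHT. Leaving out 1 library turned the sign in at least 1 fit, within the ranges given, of SVA_A in ZNF429 (-0.15 to 0.20), SVA_A in ZNF611 (-0.29 to 0.10), SVA_A in ZNRF2P1 (-0.018 to 0.19), SVA_C (-0.14 to 0.062) and SVA_D in MRNIP (-0.074 to 0.22) with 4OHT and of SVA_A in LRIG2-DT (-0.30 to 0.43), SVA_A in RNF20 (-0.42 to 0.011), SVA_B in ZSWIM5 (-0.099 to 0.029), SVA_D in PRSS23 (-0.019 to 0.11), SVA_D near MLLT10P1 (-0.16 to 0.016), SVA_D in ANKRD18B (-0.061 to 0.34) and SVA_F near CTSS (-0.26 to 0.13) on knockdown.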
